A study of Mus musculus with 10 samples.

Results

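Collagens are the main structural proteins of the dermis and of the basement membranes that bound the hair follicle. Collagen chains were taken here as the genes whose symbol in the array's annotation has the form Col, a number, the letter a and a number, with Col17a1, a hemidesmosome protein, left out. These were 35 of the 12393 genes named on the array, measured by 57 probe-sets. By the kind of structure they build, 9 were fibrillar, 6 basement membrane, 9 FACIT (fibril-associated collagens with interrupted triple helices), 3 beaded filament, 2 multiplexin, 1 anchoring fibril, 2 short-chain network, 2 transmembrane and 1 of another kind. The samples were 5 cell populations, with 2 arrays each, sorted from backskin of mice at postnatal day 4 that all carried the Lef1-RFP and K14-H2BGFP transgenes, with no treatment named in the labels. The populations were matrix (Mx) and outer root sheath (ORS) of the follicle epithelium, dermal papilla (DP), dermal fraction (DF) and melanocytes (Mc). The K14 promoter is active in basal epithelial cells, and the red reporter was driven by a piece of the human LEF1 promoter that is active in DP and Mc of this skin. Mx cells had low and ORS cells high GFP and neither had RFP, DP cells had high RFP without GFP, DF cells had neither reporter, and Mc had high RFP and the surface protein CD117. DP and DF were first depleted of CD117, CD34 and CD45, proteins of melanocytes, endothelial cells and immune cells, and DF is therefore what remained of the dermis and not 1 cell type. Dermis from several pooled backskins was digested with collagenase before the sort.

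A collagen molecule is a triple helix of 3 chains, which may be products of 1 gene or of several, so the chains of a heterotrimer are needed together. Type I collagen joins the products of Col1a1 and Col1a2, and with the homotrimer of Col3a1 and small amounts of types V and XI it forms the fibrils of the dermis. FACIT chains attach to the surface of such fibrils, type VI collagen assembles into fine beaded filaments around cells, type IV collagen builds the sheet of the basement membrane, and type VII collagen anchors that sheet to the dermis. Collagen chains are made at the rough endoplasmic reticulum, where their prolines and lysines are hydroxylated, and are trimmed and cross-linked outside the cell.

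The bases just upstream of 4 of these genes are shown because the genes stand for the different patterns below. Col1a2 and Col3a1 stand for fibrillar chains with high signal in both DF and DP. Col6a1 stands for a beaded filament chain highest in DF, and Col4a5 for a basement membrane chain highest in ORS. Each run is the 150 bases before the outermost annotated start of the gene, written 5′ to 3′ on the gene's strand from RefSeq's promoter table and gene table for GRCm38.p6. Capitals mark matches on either strand to 3 short motifs, which do not overlap each other here. The TATA box, which places the start of transcription in many tissue-restricted genes, was searched as TATAAA. The box bound by the NF-Y factor was searched as CCAAT. The GC box, bound by Sp factors, was searched as GGGCGG.
Col1a2, chr6:4505468-4505617, plus strand: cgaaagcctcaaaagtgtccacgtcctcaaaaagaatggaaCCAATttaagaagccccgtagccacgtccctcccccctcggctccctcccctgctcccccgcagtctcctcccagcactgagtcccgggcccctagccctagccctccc
Col3a1, chr1:45311388-45311537, plus strand: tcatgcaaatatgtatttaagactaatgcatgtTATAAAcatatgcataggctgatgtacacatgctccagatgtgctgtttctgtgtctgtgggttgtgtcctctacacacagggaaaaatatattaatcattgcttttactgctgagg
Col6a1, chr10:76726045-76726194, minus strand: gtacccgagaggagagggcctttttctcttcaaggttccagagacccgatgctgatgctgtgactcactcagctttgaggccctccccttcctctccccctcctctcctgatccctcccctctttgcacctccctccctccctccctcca
Col4a5, chrX:141475220-141475369, plus strand: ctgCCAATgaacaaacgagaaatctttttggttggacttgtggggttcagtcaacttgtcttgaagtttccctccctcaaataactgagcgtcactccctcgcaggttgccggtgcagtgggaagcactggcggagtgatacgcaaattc
The GC content of these windows was 62.7% for Col1a2, 37.3% for Col3a1, 60.0% for Col6a1 and 50% for Col4a5. Col1a2 and Col4a5 each held 1 match to the NF-Y motif, Col3a1 held 1 match to TATAAA, and Col6a1 held none of the 3 motifs. The Col3a1 match lies nearer the upstream end of its window than the start of the gene. For the promoter table as a whole, the window ended at each promoter's own listed start and not at the outermost annotated one. Among its 32851 promoters, these 150 bases held the TATA box in 7.57%, the NF-Y motif in 24.5% and the GC box in 28.6%. The table had 29 promoters for 26 of the 35 collagen genes, and of these 3 held the TATA box, 7 the NF-Y motif and 13 the GC box. A match describes the letters alone, and no binding was measured.

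The arrays gave 1 linear intensity (signal) per probe-set, and differences are given on the scale of log2(signal + 50), which understates the change of weakly measured genes. The median signal of an array ran from 49.9 to 90.9, and Pearson's r between the replicates of a population, across all probe-sets, ran from 0.971 to 0.982. A gene was tested with limma where some population had a signal of 200 or more on each of its arrays, and was called where the p adjusted over all tested probe-sets was under 0.05. The 5 keratinocyte markers (Krt5, Krt14, Krt15, Epcam, Cdh1) summed to 17733 and 22260.2 in ORS and 5372 and 6421 in Mx, against 839.6 and 1842 in DF, where Krt5 and Krt14 reached 200, and 503 and 434 in DP. The 4 markers of the hair shaft (Krt35, Krt31, S100a3) and inner root sheath (Krt25) summed to 930.4 and 5346 in DF and 1868 and 2239.5 in DP, against 18990.2 and 16303 in Mx. The 4 papilla markers (Alpl, Fgf7, Crabp1, Rspo2) reached 200 in DP only. Among the fibroblast markers, Vim was 9200.1 and 7175 in DF and 4959.5 and 5794 in DP, but Dcn was highest in Mx (4725 and 3052) and Lum stayed under 200 in DF (148 and 158). DF also held the markers of vessel walls. Its summed signal of 7 pericyte and smooth muscle markers was 20655 and 23546 against 3895 and 6428 in DP, that of 6 endothelial markers 3593 and 2590.4 against 275 and 268, and Alas2 of red cell precursors was 3462 and 4266 against 4.5 and 6.5. The 3 measured Schwann cell markers summed to 2425 and 1815 in DF and 955 and 1237 in DP, with Mbp at 2054 and 1490.5 in DF and 169.6 and 443 in DP. The others were higher in DP, Sox10 at 537.2 and 517.8 against 306.7 and 255.8 in DF and S100b at 247.8 and 276.7 against 64.4 and 69.1. Sox10 was highest in Mc (1835 and 1894). The 6 measured melanocyte markers summed to 23321 and 14537 in DP and 12403 and 3730.1 in DF, against 28305 and 29724.5 in Mc. No leukocyte or skeletal muscle marker reached 200 in both arrays of any population. The arrays came from 2 chip lots, 6 arrays in one and 4 in the other, both Mx arrays in the larger, and the rest split evenly. Within each lot that held both sides of a comparison, all called chains kept the sign of their difference, 11 of 11 for DP against DF and 18 of 18 for Mc against DP in either lot, but the Mc minus DP difference of Col12a1 was -0.05 in the larger lot and -1.62 in the other.

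Of the 35 collagen genes, 19 reached the signal bound, 7 of 9 fibrillar, 3 of 3 beaded filament, 3 of 9 FACIT, 3 of 6 basement membrane, 2 of 2 multiplexin chains and the anchoring fibril chain. All 19 did so in DF, 17 in DP, 11 in ORS, 4 in Mc and 2 in Mx, the last being Col1a2 and Col3a1, so the tested chains are chains that DF expressed. The summed signal of the representing probe-sets of the 35 genes was 70355 and 65508 in DF, 39636 and 42544 in DP, 10857 and 13206 in ORS, 6289 and 4458 in Mc, and 2107 and 3165 in Mx. Each population's pair of sums stood apart from every other pair. Ordered by their means, the tested chains fell into a few patterns. DF stood above its next neighbour for 10 chains (Col1a1, Col4a1, Col4a2, Col5a1, Col5a3, Col6a1, Col6a2, Col11a1, Col12a1, Col18a1). DF and DP led without a called difference between them for 4 (Col1a2, Col3a1, Col5a2, Col6a3). DF, DP and ORS led for 3 without a called difference between neighbours in the order (Col7a1, Col14a1, Col16a1). Between the first and last of these populations, Col14a1 was lower in ORS than in DP (-1.10 on the log2 scale, adjusted p = 0.0032 from limma). Col7a1 was higher in ORS than in DF (0.64, adjusted p = 0.0471). DP alone led for Col15a1 and ORS alone for Col4a5. Since these are bulk populations, fewer expressing cells and less RNA per cell cannot be told apart.

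**Figure D1:**
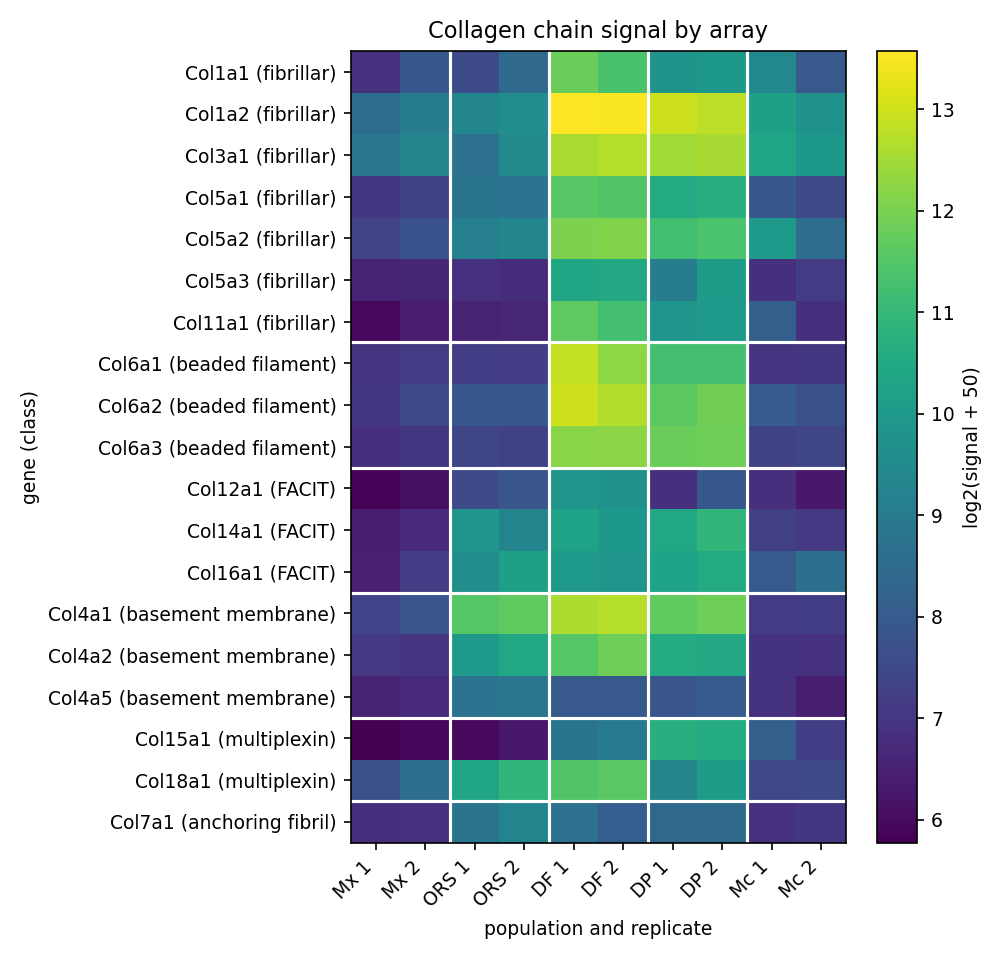
Signal of the 19 tested collagen chains (rows, grouped by class) on the 10 arrays (columns, population and replicate number), coloured by log2(signal + 50). The DF columns are bright in nearly every row, DP is bright in the type VI rows and most fibrillar rows but not in Col12a1, ORS is bright in Col4a1, Col4a2, Col14a1, Col16a1 and Col18a1, and Mx and Mc are mostly dark outside Col1a2 and Col3a1.

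The dermal side of the follicle was compared with its epithelial side as the mean of DF and DP minus the mean of Mx and ORS. Of the 19 tested chains 18 were higher in the mesenchyme, where 34.4% of all 5253 tested genes were, and 0 were lower, where 26.3% were. Without a signal filter 26 of the 35 chains were higher (29.8% of all 12393 genes) and 1, Col4a4, was lower (14.7% of all genes). The median log2 difference without the filter was 1.21 over the 35 chains and 0.125 over all genes. The beaded filament chains had the widest gap. Col6a3 was 4588 and 4756 in DF and 3557 and 3629 in DP, against 66.7 and 82 in Mx and 118.5 and 109 in ORS. The mesenchymal arrays lay far above the epithelial ones with no overlap, by 4.86 on the log2 scale (with a standard error of 0.12, adjusted p = 1.03e-10 from limma). Col6a1 (4.78) and Col6a2 (4.72) differed by about as much. The 7 fibrillar chains were higher by 3.0 (Col1a1) to 4.3 (Col11a1), the 3 FACIT chains by 1.76 (Col12a1) to 2.32 (Col14a1). Both multiplexins were higher, Col18a1 by 1.21 and Col15a1 by 3.78. The smallest differences belonged to chains of the basement membrane zone, with 0.47 (adjusted p = 0.0246) for Col7a1 and 0.24 (adjusted p = 0.15) for Col4a5, the only tested chain without a call. The call of Col7a1 was lost in 7 of 19 alternative settings. The epithelial mean joins ORS with Mx, so a call does not place ORS below each mesenchymal population. ORS was above DP for Col18a1 (0.94, adjusted p = 0.0278 from limma) and above DF for Col7a1 (0.64, adjusted p = 0.0471).

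Both chains of type I collagen were highest in DF and next highest in DP. The probe-set that stood for Col1a1, the one with the higher mean log2 signal over all arrays, read 3553 and 2528 in DF, 842 and 923 in DP, 640.3 and 199 in Mc, 141 and 305 in ORS and 68.6 and 194 in Mx. Its partner Col1a2 read 12178.5 and 11643 in DF, 8060.5 and 7124 in DP, 1131 and 819 in Mc, 609 and 734 in ORS and 319 and 481 in Mx. For both chains the DF arrays were above all others and the DP arrays above those of Mc, ORS and Mx. Col1a1 was 3.27-fold lower in DP than in DF (a log2 difference of -1.71, 95% interval -2.68 to -0.74, adjusted p = 0.0166 from limma), and its other probe-set, which was the higher of the pair in DF, with 7503 and 7408 in DF and 665 and 719.9 in DP, was 10.1-fold lower (-3.34, interval -3.93 to -2.74, adjusted p = 2.78e-06). The first call was lost without DF replicate 1 (adjusted p = 0.121) or either DP array (0.096 without replicate 1, 0.0639 without replicate 2), and with a pseudocount of 1 or no filter. Col1a2 was 1.57-fold lower in DP, which did not pass (-0.65, interval -1.13 to -0.17, adjusted p = 0.0618), whereas its other probe-set, with 6079 and 6217 in DF and 3072 and 3399 in DP, was called (-0.92, adjusted p = 0.00899). The brighter Col1a2 probe-set lay close to the highest signal of the DF arrays, 13059 and 13208, and saturation was not tested. Whether the 2 chains of type I collagen differed from each other in their step from DF to DP was not tested.

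Col3a1, the chain of type III collagen, differed least between the mesenchymal populations among the fibrillar chains. It read 6123 and 6694 in DF, 5700.3 and 5938 in DP, 1280.3 and 921 in Mc, 371 and 650.5 in ORS and 427 and 602 in Mx. The DF arrays were just above the DP arrays, and both were above the rest. The DP minus DF difference was -0.14 (interval -0.69 to 0.42, adjusted p = 0.781 from limma) and -0.16 (adjusted p = 0.639) for its other probe-set. With quantile normalization it turned to 0.159 and with the fluidics station as a block to 0.0738, so no direction was held. The brighter probe-set also reached 200 in Mx and ORS, but its other probe-set stayed at 47.8 and 51.6 in Mx and 55.7 and 69.8 in ORS.

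**Figure D2:**
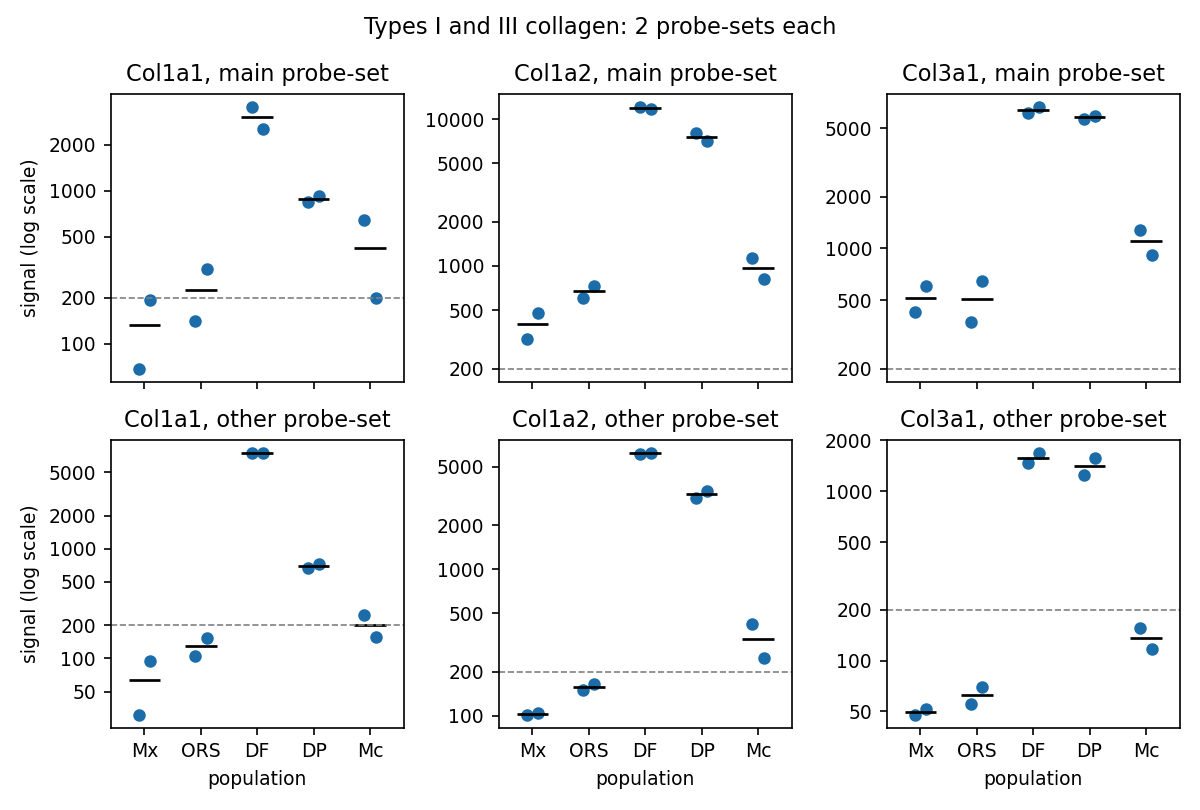
Signal (log axis, points are arrays, bars are means of 2) of Col1a1, Col1a2 and Col3a1 by population, with the main probe-set, which stands for the gene, above and the other below; the dashed line is a signal of 200 and each panel has its own axis. DF leads in each panel, DP lies lower for Col1a1 and Col1a2 and just under DF for Col3a1, and the second probe-sets of Col1a2 and Col3a1 stay under 200 in Mx and ORS.

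By the probe-sets that stood for them, the minor fibrillar chains were also highest in DF. Col5a1, a chain of the type V collagen that starts fibril assembly, read 2934 and 2775 in DF and 1433 and 1569 in DP. Its partner Col5a2 read 4161 and 4324.5 in DF and 2344 and 2613 in DP. Every DF array was above every DP array for both, and Col5a1 was lower in DP, with a log2 difference of -0.91 (adjusted p = 0.00459 from limma), a call lost without DP replicate 1, while -0.77 for Col5a2 did not pass (adjusted p = 0.146). In ORS Col5a1 read 402 and 377 and Col5a2 509.9 and 611, while Col5a3, the remaining type V chain, read 68.4 and 60.7. Col5a3 read 1283 and 1395 in DF and 484.5 and 1049 in DP, with DP replicate 1 the lower (a log2 difference of -0.86, adjusted p = 0.045), and lost its call in 14 of 20 settings. Its other probe-set, too weak to be tested, was the higher in DP, with 51.6 and 80.2 against 17.9 and 48.1 in DF. Col11a1, a chain of type XI collagen best known from cartilage, read 3123 and 2392 in DF, 891 and 948 in DP and 232 and 66.5 in Mc, and no more than 47.1 on any epithelial array. Its DF and DP arrays did not overlap, with a log2 difference of -1.52 (with a standard error of 0.32, adjusted p = 0.0049), lost without DF replicate 1 (adjusted p = 0.0504) and with a pseudocount of 1.

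The chains of type VI collagen reached 200 in both arrays of DF and DP only. Col6a1 read 7354.5 and 4864 in DF and 2409 and 2423 in DP, and no more than 98.1 elsewhere. Col6a2 read 8289 and 6498 in DF, 3095 and 3701 in DP and 213 and 159 in Mc. The DF arrays of both chains were above the DP arrays, and both were lower in DP, Col6a1 by 2.45-fold (a log2 difference of -1.29, adjusted p = 6.26e-04 from limma) and Col6a2 by 2.15-fold (-1.11, adjusted p = 0.00326). Col6a3, whose long chain completes the heterotrimer, was nearer level, with -0.37 (interval -0.74 to -0.01, adjusted p = 0.159). In RefSeq's gene table Col6a2 and Col6a1 lie on the minus strand of chromosome 10, 85161 bases apart, and Col6a3 lies on chromosome 1.

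The FACIT chains did not share a pattern. Col12a1 read 866 and 828 in DF, 140.0 and 181 in ORS, 66.5 and 194 in DP, 62.4 and 29.4 in Mc and 7.8 and 17.9 in Mx. Only the DF arrays reached 200, and the ORS and DP arrays overlapped. In DP it was 5.32-fold lower than in DF (-2.41 on the log2 scale with a standard error of 0.30, limma's adjusted p = 7.96e-05). Col12a1 was tested only through its DF signal, and without the filter the adjusted p was 0.00383. Col14a1, a chain of the same subfamily, read 1352 and 1894 in DP, 1217 and 922 in DF, 894 and 577 in ORS, 102 and 87.9 in Mc and 35.8 and 57.6 in Mx. The DP arrays were the highest, and the difference of 0.57 from DF did not pass (adjusted p = 0.136), while its other probe-set, at 844 and 965 in DP and 535 and 352 in DF, did (0.97, adjusted p = 0.0044). Col16a1 had no called difference among 3 populations, with 1209 and 1438 in DP, 747 and 1138 in ORS and 941 and 873 in DF, against 203 and 351 in Mc and 39.3 and 95 in Mx.

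DP was set against DF in the study to separate what is particular to the papilla from general features of dermal cells. Among the 19 tested chains 10 were lower in DP, where 11.7% of all tested genes were, and 1 was higher, where 7.77% were, and 8 did not pass. Without a filter 8 of the 35 were lower (6.32% of all genes) and 4 higher (4.47%), with a median log2 difference of -0.14 over the chains and -0.0043 over all genes. By class, the lower chains were 4 of 7 tested fibrillar, 2 of 3 beaded filament, 2 of 3 basement membrane, 1 of 3 FACIT and 1 of 2 multiplexin chains. The higher chain was Col15a1, a multiplexin of the basement membrane zone. It read 1614 and 1473 in DP, 398 and 444 in DF, 232 and 100.5 in Mc, 12.8 and 27.1 in ORS and 4.8 and 8.7 in Mx. The DP arrays were above all others and the DF arrays above the remaining populations, and the DP over DF difference was 3.38-fold (1.76 on the log2 scale with a standard error of 0.26, limma's adjusted p = 2.98e-04). Col18a1, the other multiplexin and the source of endostatin, went the opposite way. It read 2772 and 2987 in DF, 1297.5 and 1876 in ORS, 594.5 and 1047 in DP, 159.6 and 339 in Mx and 124 and 136 in Mc. DF was highest and ORS stood above DP without overlap, and Col18a1 was 3.48-fold lower in DP than in DF (-1.8 on the log2 scale with a standard error of 0.31, adjusted p = 0.00104).

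**Figure D3:**
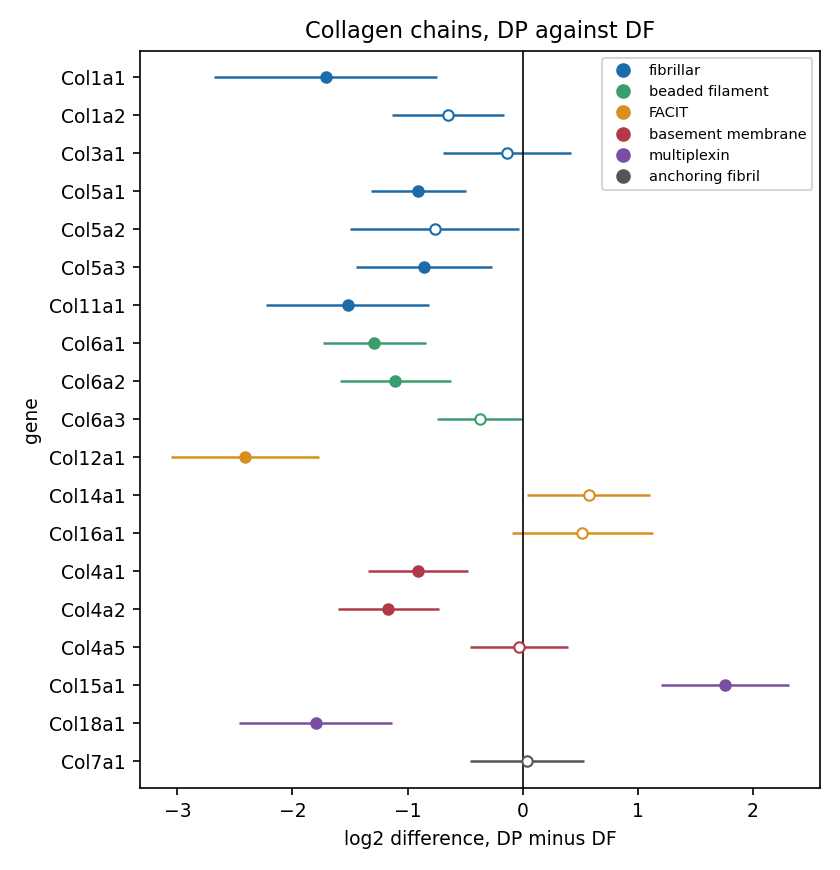
Log2 difference (DP minus DF, on the scale of log2(signal + 50)) of the 19 tested chains with 95% intervals, coloured by class; filled points have an adjusted p under 0.05 in limma and open points do not. The 10 filled points left of 0 run from Col12a1 at -2.41 to Col5a3 at -0.86, and only Col15a1, at 1.76, is filled on the right.

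A chain at least 2-fold higher in 1 population than in each of the other 4, with an adjusted p under 0.05 in each of those comparisons, was found for DF in 6 cases (Col1a1, Col4a2, Col6a1, Col6a2, Col11a1, Col12a1), where 3.64% of all tested genes were, and for DP in 1 (Col15a1), where 2.63% were. There were 0 such chains in Mx, ORS and Mc, where 1.31%, 1.87% and 2.65% of all tested genes were. All 19 tested chains reached the signal bound in DF, and Col12a1 only there. The shares are over genes that reached it in any population, so they are not a like base for the DF chains. Without DF replicate 1 the DF chains were 2, Col4a2 and Col12a1. With a limit of 1.5-fold they were 10, and Col4a5 was then 1 in ORS. The vessel wall, erythroid, keratinocyte and Schwann cell markers given above were also higher in DF than in DP by their sums. The melanocyte markers went the other way, with sums of 23321 and 14537 in DP and 12403 and 3730.1 in DF. The summed signal of Krt35, Krt31, S100a3 and Krt25 overlapped, at 930.4 and 5346 in DF and 1868 and 2239.5 in DP. Of the 7 pericyte and smooth muscle markers 6 reached 200 in DF and 5 in DP, of the 6 endothelial markers 3 in DF and 0 in DP. Of the 8 fibroblast markers, 3 of them collagen chains, 7 reached 200 in DF and 8 in DP, with sums of 33377.5 and 31043 in DF and 22657 and 23234 in DP. Vim and Dcn (1326 and 1914 in DF, 529 and 636 in DP) were the higher in DF, and Pdgfra (609.8 and 658 in DF, 1450.5 and 1633 in DP), Twist1 and Lum in DP. The part of these markers in the DP and DF differences was not tested.

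The 3 tested basement membrane chains reached 200 on both ORS arrays as well as in DF. Col4a1 and Col4a2, which form the common type IV heterotrimer, lie head to head in RefSeq's table of GRCm38.p6, Col4a1 at chr8:11198423-11312889 on the minus strand and Col4a2 at chr8:11312805-11449287 on the plus strand, with 85 shared bases. Col4a1 read 6282 and 6709 in DF, 3207 and 3662 in DP, 2909 and 3246 in ORS, 114 and 183 in Mx and 93.9 and 97.9 in Mc. Col4a2 read 2889 and 3684 in DF, 1467 and 1382.5 in DP, 973.5 and 1342 in ORS, 85.4 and 73.8 in Mx and 72.1 and 67.3 in Mc. Both had the same order, DF, then DP and ORS without a called difference between them, then Mx and Mc, also without one. They were lower in DP than in DF, with a log2 difference of -0.91 for Col4a1 (adjusted p = 0.00581 from limma, 0.0669 without DP replicate 1) and of -1.17 for Col4a2 (adjusted p = 0.00114). Col4a5, a chain of the rarer type IV networks, read 379 and 403 in ORS, 200.1 and 200.5 in DF, 184 and 206 in DP, 70.2 and 35.9 in Mc and 44.4 and 55.2 in Mx. ORS was above all other arrays, and DF, just inside the signal bound, overlapped DP (-0.03, adjusted p = 0.939, with a sign that turned under 2 settings). Its partner Col4a6 lies 1274 bases away on the opposite strand of chromosome X and did not reach the bound. It too was highest in ORS (140.1 and 176), against 87.5 and 81.7 in DF, 74.8 and 77.9 in DP, 27.2 and 70 in Mc and 31.4 and 53.9 in Mx.

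ORS, which lies along the basement membrane, was compared with Mx, the proliferating cells of the bulb. Of the 19 tested chains 11 were higher in ORS, where 15.5% of all tested genes were, and 0 were lower, where 4.25% were. Without a filter 12 of the 35 were higher (7.15% of all genes) and 0 lower (1.86%), with a median log2 difference of 0.40 over the chains and 0.06 over all genes. Quantile normalization moved the median of all tested genes by -0.14 in this comparison and took away 1 call. The largest difference was that of Col4a1, at 16-fold (4.0 on the log2 scale with a standard error of 0.20, limma's adjusted p = 6.11e-07), followed by 3.2 for Col4a2, 3.1 for Col16a1, 3.0 for Col14a1 and 2.5 for Col18a1. Their ORS and Mx arrays, given above, did not overlap. Col4a5 was higher in ORS by 2.15 (adjusted p = 8.14e-06). Col7a1, the anchoring fibril chain, read 388 and 584 in ORS, 363 and 228 in DF, 289 and 307 in DP, 69.3 and 82.8 in Mc and 65.2 and 69 in Mx. ORS was above DF by 0.64 (adjusted p = 0.0471 from limma) and did not differ from DP by a call (adjusted p = 0.0542). Against Mx it was 4.5-fold higher (2.17, adjusted p = 2.32e-05).

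By class, the chains higher in ORS than in Mx were 3 of 3 tested basement membrane, 3 of 3 FACIT, 1 of 1 anchoring fibril, 1 of 2 multiplexin, 3 of 7 fibrillar and 0 of 3 beaded filament chains. The fibrillar ones were Col5a1 (1.62), Col5a2 (1.68) and Col1a2 (0.7, adjusted p = 0.044), and the call of Col1a2 was lost in 13 of 20 alternative settings. Col12a1 was higher by 1.74 although neither population reached 200. The type VI chains differed by 0.13 (Col6a1), 0.4 (Col6a3) and 0.67 (Col6a2, adjusted p = 0.0513), without a call. Col3a1 had a difference of -0.04 (interval -0.59 to 0.52) and Col1a1 of 0.61 (interval -0.35 to 1.58). Among the pericyte and smooth muscle markers, Acta2 was 1938 and 2614 in ORS against 205 and 236 in Mx, Tagln 1293 and 1666 against 36.8 and 25.6 and Cspg4 716.5 and 973 against 60.4 and 80.9. The other defining markers of those cells were low in ORS, with Rgs5 at 32.2 and 39.7, Pdgfrb at 11.8 and 8.6 and Myh11 at 17.6 and 32.7. Of the 8 fibroblast markers 4 reached 200 in ORS, Vim, Dcn, Col1a2 and Col3a1, and 3 in Mx, with sums of 3218 and 2885 in ORS and 5817 and 4571 in Mx. Most of the Mx sum was Dcn, at 4725 and 3052 in Mx and 1766 and 890.2 in ORS. Vim (246.1 and 211.5 in ORS, 196.4 and 178.3 in Mx), Lum and Col1a2 were higher in ORS on both arrays. Col1a1 and Col3a1 overlapped, and Pdgfra and Twist1 were at most 13.0 in either. Over the 7 pericyte and smooth muscle markers the sum was 4051 and 5382 in ORS, with 3 at 200 or more, against 403 and 467 in Mx, with 1. The ratio of 3' to 5' signal of the actin control, a sign of RNA quality, was 2.09 and 1.73 in Mx, 1.22 and 1.47 in ORS and from 1.23 to 1.46 elsewhere, and Mx replicate 1 had the lowest median signal, 49.9. The part of the markers and of RNA quality in the ORS and Mx differences was not tested.

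**Figure D4:**
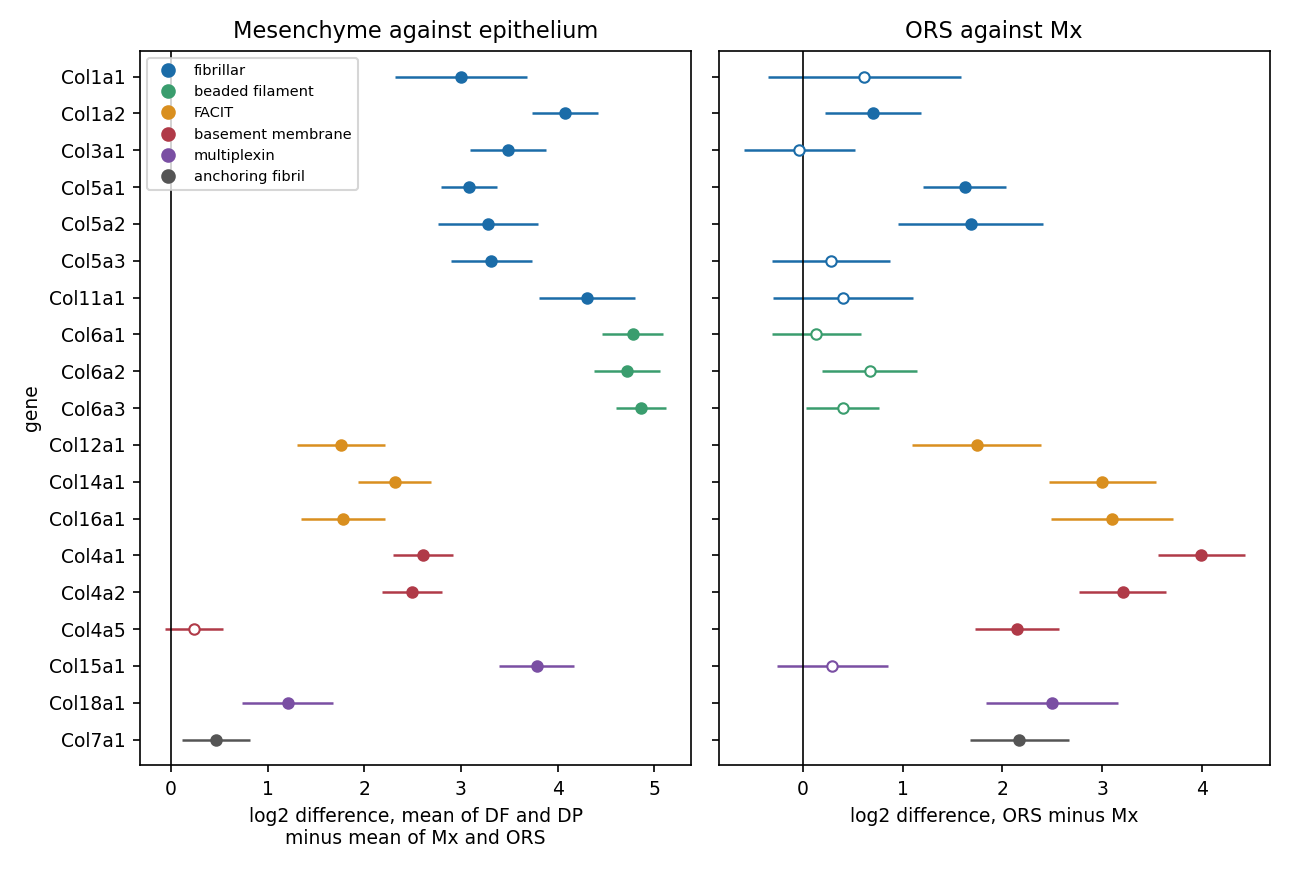
Log2 differences of the 19 tested chains with 95% intervals, for the mean of DF and DP minus the mean of Mx and ORS (left) and for ORS minus Mx (right), coloured by class and filled where the adjusted p in limma was under 0.05. The type VI chains lie farthest right on the left side (4.72 to 4.86) and near 0 on the right side, while Col4a1 (4.00) and Col4a2 (3.20) lead the ORS comparison; both sides use the Mx and ORS arrays.

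**Figure D5:**
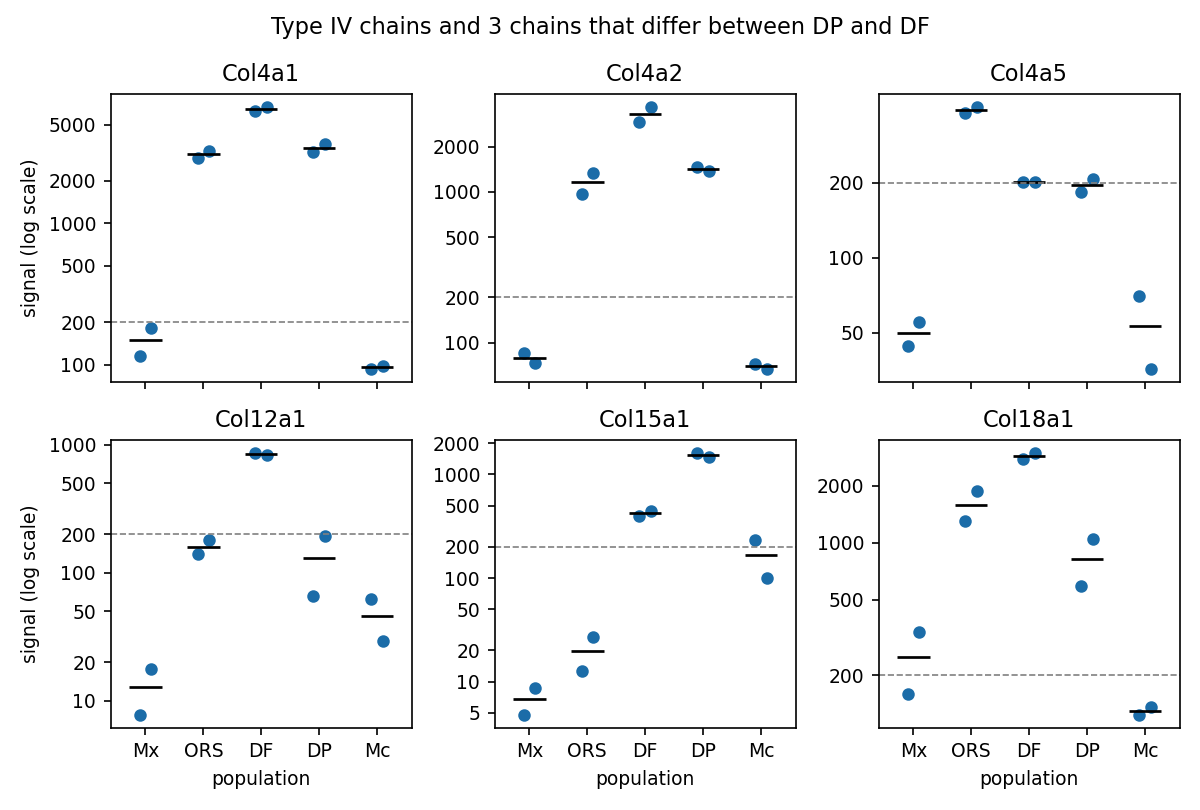
Signal (log axis, points are arrays, bars are means of 2, dashed line a signal of 200, axes differ between panels) of Col4a1, Col4a2, Col4a5, Col12a1, Col15a1 and Col18a1 by population. Col4a1 and Col4a2 follow the same order with DF on top, Col4a5 peaks in ORS, Col12a1 in DF, Col15a1 in DP, and Col18a1 falls from DF through ORS to DP.

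Mc and DP share high RFP and were separated by CD117, and the study compared them directly. Of the 19 tested chains 18 were lower in Mc, where 20.7% of all tested genes were, and 0 were higher, where 10.6% were. Without a filter 22 of the 35 were lower (13.0% of all genes) and 0 higher (4.86%), with a median log2 difference of -1.27 over the chains and -0.10 over all genes. Quantile normalization moved the median of all tested genes by 0.13 in this comparison. The largest differences were those of Col4a1 (a log2 difference of -4.57, adjusted p = 4.74e-09 from limma), Col6a3 (-4.47), Col6a1 (-4.27), Col6a2 (-3.87) and Col4a2 (-3.62). For each of these genes both Mc arrays were at 213.4 or less and the DP arrays at 1382.5 or more. Col1a2 (-2.91) and Col3a1 (-2.37) were lower in Mc too, but Col1a2 still read 1131 and 819 and Col3a1 1280.3 and 921 in Mc. Col1a1 did not pass (-1.17, adjusted p = 0.0667), while its other probe-set did (-1.57, adjusted p = 7.14e-04). Col12a1, at -0.84, lost its call in 14 of 20 settings.

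The Mc replicates differed for several chains. Mc replicate 1 was above replicate 2 for Col1a1 (640 and 199), Col5a2 (940.4 and 326.5), Col11a1 (232 and 66.5) and Col15a1 (232 and 100.5), and the gap of Col1a1, 1.47 on the log2 scale, was the widest between replicates among the tested chains. Without Mc replicate 1 the Col1a1 difference from DP was called (adjusted p = 0.00652). No such gap was seen for Col4a1, at 93.9 and 97.9, or Col6a3, at 109.8 and 118. The 8 fibroblast markers, of which 4 reached 200 in Mc, summed to 5274 and 3741 there, and Vim made up 1747 and 1469, while Pdgfra was 14 and 0.9 and Twist1 10.3 and 11.2. These sums include Col1a1, Col1a2 and Col3a1 themselves, and their part in the result was not tested. Of the 6 measured melanocyte markers, 5 reached 200 in DP. Dct (8070 and 5420 in DP, 6471 and 7260 in Mc), Pmel and Tyrp1 overlapped between DP and Mc. Tyr (2725 and 1403 in DP, 5829 and 5921 in Mc), Kit (621.5 and 376 in DP, 2989 and 2651 in Mc) and Mc1r were lower in DP. The part of the melanocyte markers was not tested either.

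The remaining 16 chains did not reach the bound in any population, and their highest signals ran from 8.1 to 224.7, with a median of 72.7. They were the cartilage chains Col2a1, Col11a2, Col9a1, Col9a2, Col9a3 and Col10a1, the type IV chains Col4a3, Col4a4 and Col4a6, the FACIT chains Col19a1, Col20a1 and Col22a1, and Col8a1, Col13a1, Col25a1 and Col26a1. Just outside the bound, Col26a1 read 168 and 225 in DP, 51.4 and 39.4 in DF, 16 and 17.9 in Mc, 5.8 and 3.8 in ORS and 6.5 and 11.6 in Mx. Its DP arrays were above all others, and without a filter limma gave a DP minus DF difference of 1.36 (adjusted p = 8.23e-04). Also called higher in DP without the filter were the weakly measured Col9a2 (29.6 and 22.9 in DP, 3.1 and 0.9 in DF) and Col13a1 (74.1 and 63.1 in DP, 32.9 and 44.7 in DF). Col8a1, a short-chain collagen of vessel and corneal matrices, read 121 and 133 in ORS, 131 and 103 in DF, 62.2 and 76 in DP, 64.1 and 28.2 in Mc and 14.9 and 8.9 in Mx. ORS was above Mx on both arrays of Col8a1 (1.52, adjusted p = 0.00293) and of Col4a6 (1.17, adjusted p = 0.0165), again without the filter. Col4a4, called lower in the mesenchyme without the filter, read 45 and 29.4 in ORS, 23.1 and 20.3 in DF, 16.8 and 16 in Mx, 10.3 and 4.8 in DP and 4 and 5.8 in Mc. Its DF arrays lay above its Mx arrays, and each value was under the median signal of its array.

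Of 30 genes for the modification, folding, processing and cross-linking of collagen, 22 were on the array and 16 were tested. In the mesenchyme 15 of the 16 were higher than in the epithelium (34.4% of all tested genes) and 0 lower (26.3%). Pcolce, the enhancer of C-propeptide removal, was 2651.5 and 3762 in DF and 3134 and 3533 in DP and at most 57.7 elsewhere, a log2 difference of 5.33 (adjusted p = 1.03e-10 from limma). The collagen chaperone Serpinh1 was 2881 and 2615 in DF, 1516 and 1969 in DP, 690.2 and 654 in ORS, 542 and 420.0 in Mc and 172 and 201 in Mx. DF led and Mx was lowest without overlap, as for the summed collagen signal. DP and DF differed for 7 of the 16, 4 lower (11.7% of all tested genes) and 3 higher in DP (7.77%). Lox, a lysyl oxidase that cross-links collagen, was 103 and 140.1 in DP and 914 and 894 in DF (-2.48, adjusted p = 3.14e-06), whereas its relative Loxl1 was 983 and 860.3 in DP and 385 and 329 in DF (1.26, adjusted p = 9.86e-04). The lysyl hydroxylases also parted, with Plod1 lower in DP (-0.87) and Plod2 higher (1.21), and for each of these 4 genes the arrays of the populations did not overlap. In ORS 5 were higher than in Mx (15.5% of all tested genes) and 0 lower (4.25%), with Plod3 at 1.62, Serpinh1 at 1.61 and the procollagen C-proteinase Bmp1 at 1.41. In Mc 12 were lower than in DP (20.7% of all tested genes) and 0 higher (10.6%), with Pcolce at -5.11 and Loxl1 at -3.36.

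Of 11 collagen receptors 7 were on the array and 4 were tested. Mrc2, an endocytic receptor that takes up collagen fragments, was 371 and 417 in DP, 244 and 208 in DF and at most 22.6 elsewhere. It was higher in DP than in DF (0.69, adjusted p = 0.0144 from limma) and higher in the mesenchyme (2.48). Itgb1, the beta subunit of the collagen-binding integrins and of many others, was higher in the mesenchyme (1.5) and higher in ORS than in Mx (1.49). Adgrg1, an adhesion receptor that binds type III collagen, was 329 and 521 in ORS, 192 and 236 in Mx, and no more than 62.3 elsewhere, and was lower in the mesenchyme (-2.11). Ddr1, a receptor tyrosine kinase of epithelia, had no call in any of the 4 comparisons.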

How the data were processed

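The deposited table holds an intensity for each probe-set of 10 Affymetrix MOE430A arrays, which the authors computed with MAS5 after 1 round of RNA amplification and scaled per array. Their methods give a target of 500 over all probe-sets. In the deposited values the mean without the lowest and highest 2% was 500 on each array over the first 100 probe-sets of the table and ran from 163.5 to 197.4 over all, so comparisons between arrays rest on those 100 probe-sets. The authors' present calls and Robust Multi-Chip values were not used here. The number of arrays limits the precision. Of 22690 probe-sets 64 controls were left out, and only the 20380 with 1 gene in the platform annotation were named (691 had several, 1555 none). Where a gene had several, the one whose log2 signal averaged highest across the arrays stood for it, and symbols were matched to RefSeq's GRCm38.p6 tables.

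Tests were made on the 8054 probe-sets that read 200 or more on both arrays of some population, with limma 3.58.1 in R 4.3.3 on log2(signal + 50), with 1 mean per population and Benjamini-Hochberg adjustment within each comparison. The residual SD had a median of 0.208, on 5 degrees of freedom, to which the moderation added 7.46. With 2 arrays against 2 an exact permutation test cannot go below p = 0.333. The methods call the replicates independent, and p-values measure only the spread between these arrays. Neighbours in the order of means were called different at an adjusted p under 0.05. Comparisons that share arrays are not independent of each other.

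Values per array are given for Col1a1, Col1a2, Col3a1, the type IV chains, up to 5 called chains with the largest difference in each direction of a comparison, the chains above each other population, and up to 4 called genes of the synthesis and receptor lists. Those of Col5a1, Col5a2, Col5a3, Col7a1, Col8a1, Col9a2, Col13a1, Col26a1 and second probe-sets were added after they were seen. Members and lists were chosen with earlier results of these data known. Alternatives were other pseudocounts, signal bounds and fold limits, quantile normalization, blocks, fits of the compared populations alone, any probe-set of a gene and each array left out. The fluidics station as a block was chosen after seeing the data. The fit was tested on simulated data. Tables were read with pandas 2.3.3 and numpy 2.4.6 under Python 3.11.15, and plots were drawn with matplotlib 3.10.9.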

Additional observations from a re-analysis of the deposited data

How the results depend on the processing

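The count of chains higher in DP than in DF, 1, became 2 with a signal bound of 100 (Col26a1), 4 with no filter, 2 with quantile normalization and 2 with any probe-set of the gene (Col14a1 in both), and stayed at 1 without each array. The count lower in DP, 10, ran from 6 to 10 with each array left out, lowest without DP replicate 1, when Col1a1, Col4a1, Col5a1 and Col5a3 lost their calls. The count lower in the mesenchyme, 0, became 1 with no filter. Of the chains above each other population, DF's 6 ran from 2 to 7 with each array left out and became 10 with a limit of 1.5-fold, ORS's 0 became 1 with that limit (Col4a5), and DP's 1 became 2 with a bound of 100 or no filter (Col26a1). The cause of these moves was not tested. The other counts stayed within 1.5 times their value. The DP minus DF difference changed sign for Col4a5 (0.0955 with the fluidics station as a block, and from -0.0978 to 0.0347 with each array left out, the highest without DP replicate 1) and Col3a1 (0.159 with quantile normalization, 0.0738 with the station as a block). The ORS minus Mx difference of Col3a1 ran from -0.40 to 0.33 with each array left out, being positive without Mx replicate 2 (0.188) or ORS replicate 1 (0.329). The labels tie no replicate number to a shared preparation, but the numbers largely followed the chip lot and fluidics station, all 5 arrays of replicate 1 being in the larger lot, and replicate 2 of DP and Mc alone shared a station and fluidics protocol. The correlations of replicate deviations between populations ran from -0.0456 to 0.34. With the replicate block 1 chain was higher and 10 lower in DP than in DF, 18 were higher in the mesenchyme, 12 higher in ORS than in Mx and 18 lower in Mc than in DP.

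Within a chip lot the tested chains moved by at most 0.56 (DP against DF), 0.80 (Mc against DP), 0.31 (mesenchyme against epithelium) and 0.45 (ORS against Mx) on the log2 scale. Comparisons with Mx used only the larger lot. Weak signals near 200 limit what can be said of Col4a5, Col7a1 and Col12a1.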
